A study of Homo sapiens with 8 samples.

Results

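LNCaP is a human prostate adenocarcinoma line that responds to androgen. The comparison described here set LNCaP cells that carried a short hairpin RNA against METTL3 together with a hairpin-resistant, catalytically dead METTL3 (the mutant rescue) against cells that carried the same hairpin with a vector (the knockdown). It asks which transcripts differ when METTL3 without catalytic activity is put back into depleted cells. The libraries were chosen by their titles, which gave 4 of the 8 libraries of the series, 2 in the mutant rescue and 2 in the knockdown. The other 4 libraries were 2 of a wild-type rescue, with the METTL3 hairpin and a resistant wild-type METTL3, and 2 of a control line, with a control hairpin and a vector. Every line was made by lentiviral transduction and selected with puromycin at 1 µg/ml, so all groups share the virus and the drug. The labels do not name the mutation, say what the vector holds, or give the number of clones or hairpins. They also do not say that the 2 libraries of a line came from separate cultures, so p-values measure only the spread between these libraries, which may be technical.

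METTL3 transfers a methyl group to adenosines in messenger RNA and forms m6A, the most abundant internal mark of messenger RNA. It works in a complex with METTL14, which helps to hold the RNA, and with WTAP and other adaptors that bring the complex to its substrates. Reader proteins such as those of the YTHDF family bind the mark and influence the decay and translation of the transcript, and FTO and ALKBH5 remove it. A catalytically dead METTL3 lacks the methyl transfer, whereas the protein itself can still take part in contacts with partners, and tests with such a mutant are used to separate the activity of the enzyme from its presence.

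METTL3 was counted at 333 and 334 CPM (read counts divided by the scaled depth of the library) in the mutant rescue, at 309 and 325 CPM in the wild-type rescue, at 26.2 and 31.3 CPM in the knockdown, and at 68.4 and 68.5 CPM in the control. The mutant rescue libraries lay far above the knockdown libraries without overlap, a ratio of 11.7 and a log2 fold change of 3.54 (SE 0.04, edgeR quasi-likelihood adjusted p = 2.77e-125). Reads of the endogenous gene and of the introduced copy fall on the same gene and were not separated. METTL3 counts in both rescues thus lay above those in the control, and the protein was not measured. KLK3, the prostate-specific antigen gene, and FOLH1, which mark luminal prostate cells, were detected at high counts in all 8 libraries. The summed level of 6 LNCaP markers was 5881 to 5907 CPM in the mutant rescue and 5911 to 5949 CPM in the knockdown.

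The libraries held 15200343 and 15954396 counts in the mutant rescue and 17582518 and 15684881 counts in the knockdown, within a range of 15200343 to 17893241 over the series. The replicates differed from each other by more than counting error (chi-square divided by its degrees of freedom, 1.22 in the mutant rescue and 1.22 in the knockdown) and were kept apart. Markers of other cell types were low or rested on 1 gene. The sum of 5 leukocyte markers was 0.251 to 0.921 CPM in the mutant rescue and 0.341 to 0.446 CPM in the knockdown, and that of 3 basal epithelial markers was 2.63 CPM in both mutant rescue libraries and 2.74 to 4.04 CPM in the knockdown. The sum of 6 fibroblast markers was 99.9 to 106 CPM in the mutant rescue and 84.9 to 93.2 CPM in the knockdown, nearly all of it COL1A1, while COL1A2, the partner chain of the same collagen, was at 0 in every library. The sum of 3 endothelial markers was 5.58 to 5.66 CPM in the mutant rescue and 9.25 to 10.9 CPM in the knockdown, mostly VWF. The sum of 5 neuroendocrine markers was 103 to 109 CPM in the mutant rescue and 85.6 to 90.4 CPM in the knockdown, mostly ENO2, with INSM1 and CHGA at 0 to 2 counts. Counts under the symbols RNR1 and RNR2 took 2.71% and 2.72% of the mutant rescue libraries and 2.44% and 2.48% of the knockdown libraries, and the part of these differences in the results was not tested.

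**Figure D1:**
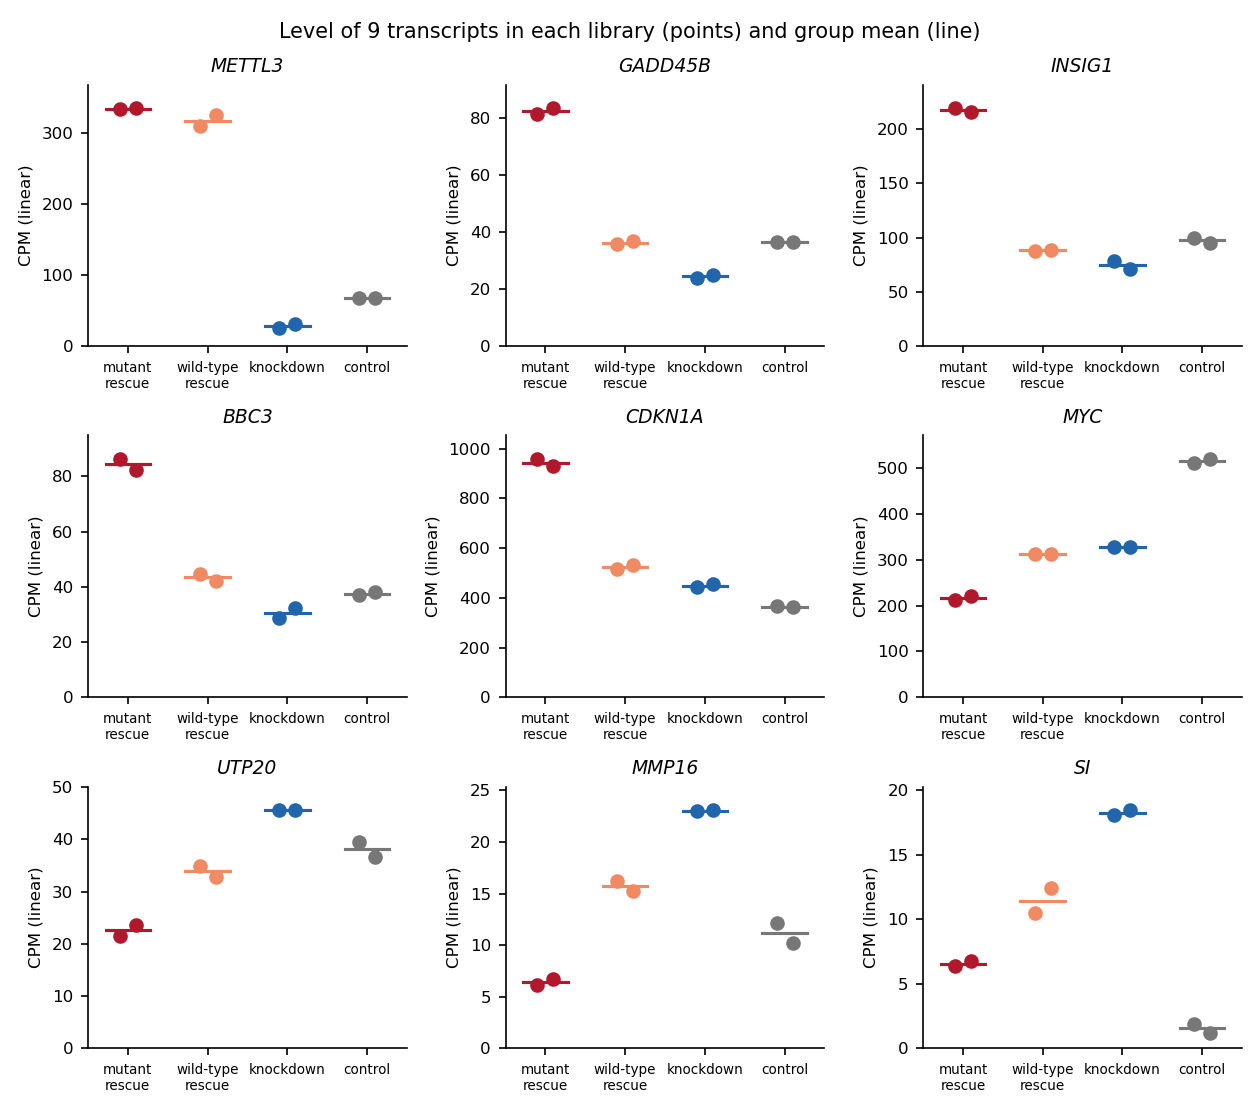
Level in CPM (linear axes from 0) of 9 transcripts in each of the 8 libraries, with points for libraries and a line for the mean of the 2 libraries of a group. METTL3 sits at 333 and 334 CPM in the mutant rescue against 26.2 and 31.3 CPM in the knockdown, and MYC, UTP20, MMP16 and SI are lower in both mutant rescue libraries than in both knockdown libraries, while GADD45B, INSIG1, BBC3 and CDKN1A are higher.

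Many transcripts differed between mutant rescue and knockdown, most of them by little. Of 15289 genes tested, 7909 (51.7%) were called at an edgeR adjusted p under 0.05. Of these, 3964 (25.9% of the genes tested) rose and 3945 (25.8%) fell in the mutant rescue. The median size of a called change was 0.31 on the log2 scale, and 2055 called genes moved by less than 0.2. The common biological coefficient of variation between libraries of a line was 1.40%. A change of at least 1.5-fold was called in 1363 genes (8.91%), of which 528 (3.45%) rose and 835 (5.46%) fell, and 380 genes reached a log2 change of 1 in either direction. At this size falls outnumbered rises, whereas over all calls the numbers were nearly equal. In RNA from whole cultures, fewer cells with a transcript and less of it per cell cannot be told apart.

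**Figure D2:**
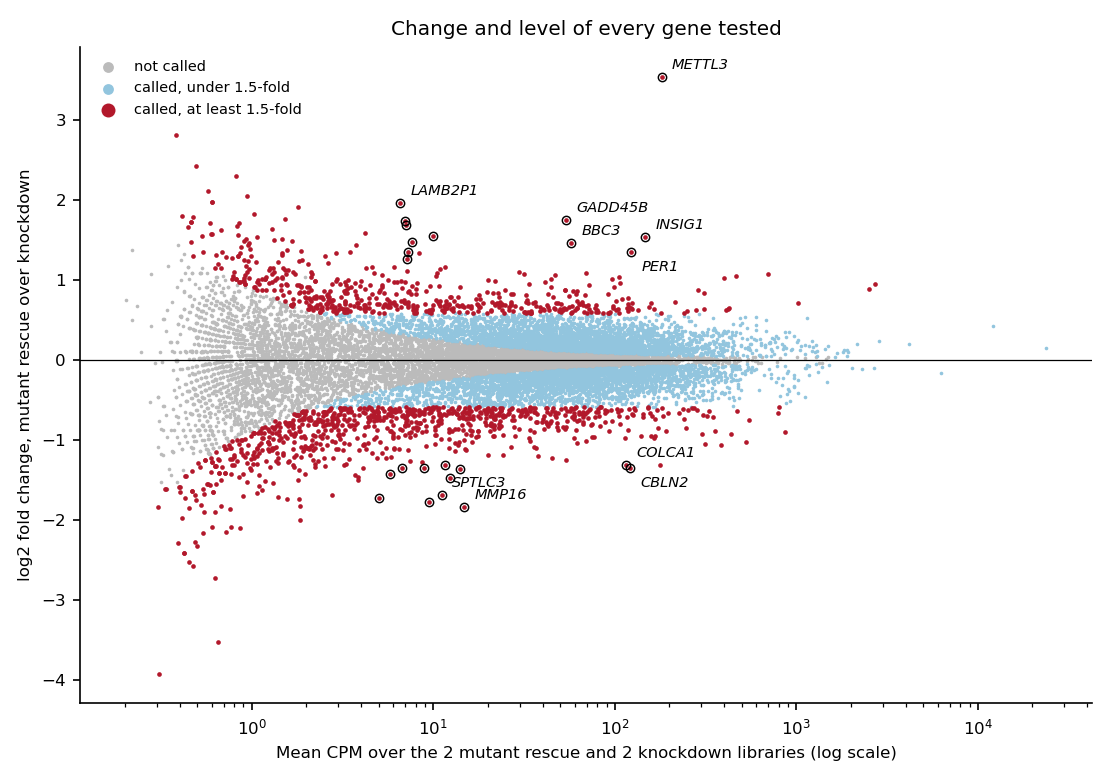
Each of the 15289 genes tested, with the mean CPM over the 2 mutant rescue and 2 knockdown libraries on a log axis and the log2 fold change of mutant rescue over knockdown on the vertical axis. Red points are the 1363 genes called at 1.5-fold or more, black rings mark the 12 largest rises and 12 largest falls at 5 CPM or more, and METTL3 stands apart at 3.54.

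After METTL3, the largest rises at 5 CPM or more were in LAMB2P1, GADD45B, DRD4, FAM132A and CHAC1. LAMB2P1, a pseudogene next to laminin beta 2 whose reads may be shared with that gene, had 9.73 and 11.1 CPM in the mutant rescue and 2.65 and 2.67 CPM in the knockdown (log2 fold change 1.97, SE 0.16, edgeR adjusted p = 9.85e-23). GADD45B, a stress-induced protein of growth arrest, had 81.6 and 83.5 CPM in the mutant rescue and 24 and 25 CPM in the knockdown (1.75, SE 0.06, edgeR adjusted p = 1.21e-66). Both groups were tight and wide apart for GADD45B, and its wild-type rescue libraries, at 35.8 and 36.9 CPM, lay between them. DRD4, a dopamine receptor, rose by a log2 fold change of 1.75 (SE 0.15) and FAM132A, which encodes a secreted factor of the adipolin kind, by 1.69 (SE 0.15).

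CHAC1, which breaks down glutathione, had 14.7 and 15 CPM in the mutant rescue, 6.64 and 7.07 CPM in the wild-type rescue, 5.47 and 4.58 CPM in the knockdown, and 14.2 and 16.6 CPM in the control. The mutant rescue libraries stood above the knockdown libraries (log2 fold change 1.55, SE 0.13, edgeR adjusted p = 5.71e-23) and overlapped the range of the control. INSIG1, a membrane protein that holds back the activation of sterol regulatory factors, had 219 and 216 CPM in the mutant rescue, 87.6 and 89.1 CPM in the wild-type rescue and 78.6 and 70.9 CPM in the knockdown (1.54, SE 0.04, edgeR adjusted p = 1.71e-83). BBC3, known as PUMA, a trigger of apoptosis, had 86.1 and 82.4 CPM in the mutant rescue and 28.8 and 32.5 CPM in the knockdown (1.46, SE 0.05, edgeR adjusted p = 3.52e-59). PER1, a repressor of the circadian clock, had 179.9 and 174 CPM in the mutant rescue and 69.7 and 68.8 CPM in the knockdown (1.35, SE 0.04, edgeR adjusted p = 5.64e-72). For INSIG1, BBC3 and PER1 both mutant rescue libraries lay above every library of the other 3 groups. The remaining rises of this set were PPP1R32 (1.47), FUT3, a fucosyltransferase with close paralogs (1.36), and PBX4, a homeodomain factor (1.27).

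The starts of INSIG1 and CHAC1 are shown because these genes head the sterol and amino acid groups described further on. They are RefSeq windows on GRCh38.p14, 250 bases before to 50 after the start, with the letters of a searched motif in capitals, CACGTG (the E-box) for INSIG1 at chr7:155297628-155297927 on the plus strand and TGATGNAA (the core of the amino acid response element, N being any base) for CHAC1 at chr15:40953221-40953520 on the plus strand, where the match is on the minus strand and appears as its reverse complement.
INSIG1: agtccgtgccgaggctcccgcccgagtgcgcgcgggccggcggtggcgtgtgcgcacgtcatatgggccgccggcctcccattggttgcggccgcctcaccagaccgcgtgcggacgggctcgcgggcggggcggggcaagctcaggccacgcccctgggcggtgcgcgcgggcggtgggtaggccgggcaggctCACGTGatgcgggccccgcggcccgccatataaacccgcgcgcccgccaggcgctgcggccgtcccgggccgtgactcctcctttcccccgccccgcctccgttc
CHAC1: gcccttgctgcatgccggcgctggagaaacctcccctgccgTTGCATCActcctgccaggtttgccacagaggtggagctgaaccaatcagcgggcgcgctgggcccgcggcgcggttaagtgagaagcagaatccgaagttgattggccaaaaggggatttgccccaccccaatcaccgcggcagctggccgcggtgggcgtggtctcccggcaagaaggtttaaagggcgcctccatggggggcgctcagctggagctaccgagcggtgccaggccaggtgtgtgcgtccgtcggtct
Both strands were searched. TGATGNAA was in a window of 8 of 27 ATF4-list genes with a window (29.6%), against 311 of 11109 tested genes (2.80%), and besides CHAC1 the holders were ASNS, ATF3, CEBPG, SLC1A4, SLC1A5, SLC3A2 and SLC7A1. The E-box was in 5 of 22 cholesterol genes (22.7%), against 1377 of 11109 tested genes (12.4%). Besides INSIG1 its holders were ABCA1, LSS, SC5D and SCAP. CCAAT, also searched but not marked above, was in 17 of 22 cholesterol genes (77.3%) and 18 of 27 ATF4-list genes (66.7%). Among tested genes it was in 4746 of 11109 (42.7%). A match is a description of these letters and not a site of binding.

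The largest falls in the mutant rescue were in MMP16, SLITRK6, OR51E1 and SPTLC3. MMP16, a membrane-anchored matrix metalloproteinase, had 6.15 and 6.74 CPM in the mutant rescue, 16.2 and 15.3 CPM in the wild-type rescue, 23 and 23.1 CPM in the knockdown, and 12.1 and 10.2 CPM in the control. It fell by 1.84 on the log2 scale (SE 0.11, edgeR adjusted p = 5.93e-35), to below the control. SLITRK6, a membrane protein of neurons, had 3.77 and 4.78 CPM in the mutant rescue and 14.8 and 14.6 CPM in the knockdown (log2 fold change -1.78, SE 0.13, edgeR adjusted p = 1.07e-25). SI, the intestinal sucrase-isomaltase, had 6.35 and 6.74 CPM in the mutant rescue, 10.5 and 12.4 CPM in the wild-type rescue, 18.1 and 18.4 CPM in the knockdown, and 1.90 and 1.20 CPM in the control (log2 fold change against knockdown -1.48, SE 0.12, edgeR adjusted p = 2.26e-24). SI and SLITRK6 were thus lower in the mutant rescue than in the knockdown and still above the control, where SLITRK6 had 1.90 and 1.57 CPM.

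OR51E1, an olfactory receptor expressed in prostate, had 2.58 and 2.08 CPM in the mutant rescue, 7.22 and 8.07 CPM in the wild-type rescue, 7.79 and 7.63 CPM in the knockdown, and 12.3 and 12.7 CPM in the control (log2 fold change against knockdown -1.73, SE 0.18, edgeR adjusted p = 1.98e-16). For this gene the wild-type rescue overlapped the knockdown, and both mutant rescue libraries lay below every other library. CBLN2, a secreted organiser of synapses, had 68.5 and 68.9 CPM in the mutant rescue, 153 and 157 CPM in the wild-type rescue and 175 and 174 CPM in the knockdown (-1.35, SE 0.04, edgeR adjusted p = 4.17e-74). COLCA1 had 66.1 and 66.4 CPM in the mutant rescue and 164 CPM in both knockdown libraries (-1.31, SE 0.04). The other falls were SPTLC3, a subunit of the enzyme that starts sphingolipid synthesis (-1.69), EHHADH, of peroxisomal fatty acid oxidation (-1.42), TLL1, a tolloid-like protease (-1.36), FJX1 (-1.35), CFAP44, a protein of cilia (-1.34), and PDE3A, a cyclic nucleotide phosphodiesterase (-1.31).

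**Figure D3:**
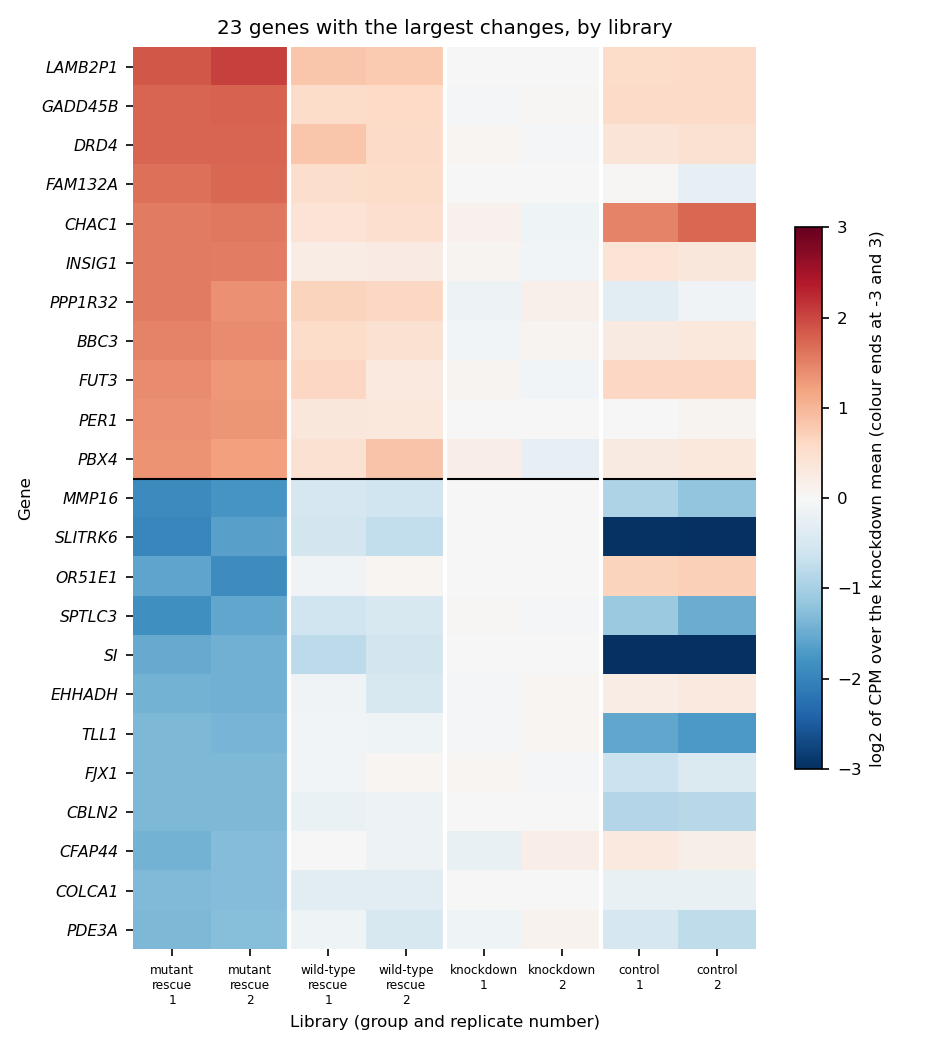
Log2 of the CPM over the mean of the 2 knockdown libraries, for the 11 genes with the largest rises other than METTL3 (above the line) and the 12 with the largest falls (below it), in the 8 libraries. The mutant rescue columns are red above and blue below, the wild-type rescue columns are paler in the same genes, and the control columns go either way, with CHAC1 high and SI, SLITRK6 and TLL1 low.

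Among the partners of METTL3, changes were small. Of 7 genes of the m6A writer complex other than METTL3, 3 rose and 1 fell (42.9% and 14.3%, against 25.9% risen and 25.8% fallen over all genes tested), none by 1.5-fold, and the median log2 change was 0.14, against 0.0017 over all genes tested. WTAP had 91.6 and 90 CPM in the mutant rescue and 72.4 and 71.7 CPM in the knockdown (log2 fold change 0.33, SE 0.04, edgeR adjusted p = 5.31e-11), and the libraries did not overlap. RBM15 (0.27) and ZC3H13 (0.14), which also help to place the complex, rose too. RBM15B was at -0.09, a call that ended with DESeq2, with the length trend removed and without knockdown replicate 2 (-0.06, edgeR adjusted p = 0.214). METTL14 was at 0.15 (SE 0.07, edgeR adjusted p = 0.0772). Of 12 readers and erasers 5 rose (41.7%) and 3 fell: YTHDF1 (0.32), HNRNPC (0.30), YTHDC1 (0.21) and the eraser ALKBH5 (0.19) rose, and RBMX, an RNA-binding protein, fell by 0.50 with 50.7 and 53.2 CPM in the mutant rescue and 73.3 and 74.0 CPM in the knockdown. IGF2BP2 rose by 0.75, with 3.77 and 3.21 CPM in the mutant rescue and 1.92 and 2.22 CPM in the knockdown, a call that ended with DESeq2 (adjusted p = 0.0839), without mutant rescue replicate 1 (edgeR adjusted p = 0.0696) and without knockdown replicate 1 (edgeR adjusted p = 0.0651). FTO was at -0.10 and was not called.

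MYC and the machinery that builds ribosomes were lower in the mutant rescue. MYC, the growth-promoting transcription factor, had 213 and 221 CPM in the mutant rescue, 312 and 313 CPM in the wild-type rescue, 328 CPM in both knockdown libraries, and 512 and 519 CPM in the control. It fell by 0.59 on the log2 scale against the knockdown (SE 0.03, edgeR adjusted p = 8.26e-50), and the mutant rescue libraries were the lowest of the 8. MAX, its partner, was at -0.13 (SE 0.06, edgeR adjusted p = 0.086). MXD1, an antagonist that competes for MAX, rose by 0.72 (SE 0.09) with 27.5 and 25.1 CPM in the mutant rescue and 16.8 and 14.9 CPM in the knockdown, and MXD3, of the same family, rose by 0.45. Among the 11 genes of the MYC network 3 rose and 3 fell (27.3% each), shares near those of all genes tested (25.9% and 25.8%).

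Of 56 ribosome biogenesis factors, 45 fell and 1 rose (80.4% and 1.79%, against 25.8% fallen and 25.9% risen over all genes tested), 12 fell by at least 1.5-fold, and the median was -0.41. BOP1, of the complex that processes large-subunit RNA, had 10.7 and 11 CPM in the mutant rescue and 20.6 and 23.4 CPM in the knockdown (log2 fold change -1.02, SE 0.10, edgeR adjusted p = 1.83e-18). UTP20, of the small-subunit processome, had 21.6 and 23.6 CPM in the mutant rescue, 34.9 and 32.8 CPM in the wild-type rescue and 45.6 CPM in both knockdown libraries (-1.01, SE 0.07, edgeR adjusted p = 1.84e-30). POLR1A, the largest subunit of RNA polymerase I, which transcribes ribosomal RNA, had 40.3 and 39.8 CPM in the mutant rescue and 77.5 and 79.3 CPM in the knockdown (-0.97, SE 0.05, edgeR adjusted p = 1.63e-39). In each of these genes the groups were separate, and the mutant rescue stood lowest. URB1 (-0.80), the nucleolar protein NCL (-0.75), the snoRNP proteins NOP58 (-0.73) and NOP56 (-0.63), and NOC3L (-0.72) fell as well, and NOP10, a small snoRNP protein, was the gene that rose (0.23). With the length trend removed 48 fell and the median was -0.41.

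UTP20 and NOC3L are shown as biogenesis genes that fell and hold the E-box CACGTG, the palindrome bound by MYC with MAX and by other factors, in capitals in RefSeq windows of the same kind on GRCh38.p14, at chr12:101279855-101280154 on the plus strand for UTP20 and at chr10:94362890-94363189 on the minus strand for NOC3L.
UTP20: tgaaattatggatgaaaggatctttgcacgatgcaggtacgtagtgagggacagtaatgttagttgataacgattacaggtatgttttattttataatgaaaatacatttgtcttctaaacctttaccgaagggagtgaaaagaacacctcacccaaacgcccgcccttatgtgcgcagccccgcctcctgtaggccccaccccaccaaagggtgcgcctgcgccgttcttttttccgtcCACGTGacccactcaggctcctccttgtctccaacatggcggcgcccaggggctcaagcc
NOC3L: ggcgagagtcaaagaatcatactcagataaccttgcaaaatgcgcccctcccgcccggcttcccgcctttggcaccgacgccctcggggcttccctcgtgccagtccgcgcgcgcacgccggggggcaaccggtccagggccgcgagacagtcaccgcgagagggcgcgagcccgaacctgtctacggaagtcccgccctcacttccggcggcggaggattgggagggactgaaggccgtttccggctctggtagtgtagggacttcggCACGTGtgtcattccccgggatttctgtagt
The E-box was in 24 of 47 biogenesis genes with a window (51.1%), against 12.4% of tested genes. Of 24 holders 18 fell, with a median log2 change of -0.36 and a range of -1.01 to 0.23, and of 23 genes without the letters 18 fell, with a median of -0.39 and a range of -0.97 to 0.06. The difference between holders and others was not tested.

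Genes of ribosomal proteins went the other way, by much less. Of 78 cytosolic ribosomal protein genes 62 rose and 1, RPL5, fell (79.5% and 1.28%, against 25.9% risen and 25.8% fallen over all genes tested), with a median of 0.16. RPS19 had 550.3 and 548 CPM in the mutant rescue, 493 and 496 CPM in the wild-type rescue and 431 and 435 CPM in the knockdown (log2 fold change 0.34, SE 0.02, edgeR adjusted p = 9.31e-33). With the length trend removed 37 rose and 8 fell, with a median of 0.05. Ribosomal protein genes have many processed pseudogenes, and RPS27, listed at 0.94, lost its call with DESeq2 (adjusted p = 0.0609), without mutant rescue replicate 1 (edgeR adjusted p = 0.0601) and without knockdown replicate 2 (edgeR adjusted p = 0.103).

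Genes known to be induced by DNA damage and similar stresses were mostly higher in the mutant rescue. Of 33 such genes 23 rose and 4 fell (69.7% and 12.1%, against 25.9% and 25.8% over all genes tested), with a median of 0.25. CDKN1A, the cell cycle inhibitor p21, had 958 and 929.8 CPM in the mutant rescue, 516 and 530.4 CPM in the wild-type rescue, 442 and 455 CPM in the knockdown, and 366 and 362 CPM in the control (log2 fold change against knockdown 1.07, SE 0.02, edgeR adjusted p = 5.62e-97). GDF15, a stress cytokine, had 3633 and 3497 CPM in the mutant rescue and 1827 and 1872 CPM in the knockdown (0.95, SE 0.02, edgeR adjusted p = 4.98e-95). The mutant rescue was the highest of the 4 groups in both genes. BBC3 (1.46), GADD45A, of growth arrest (0.88), DDB2, of DNA damage recognition (0.87), and PMAIP1, another trigger of apoptosis (0.52), rose as well, and CYFIP2, of actin regulation, fell by 0.61.

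MDM2, a ubiquitin ligase, rose by 0.13. With DESeq2, or without knockdown replicate 2, the falls among these damage-induced genes numbered 2. In the BCL2 family outside this list 7 of 12 rose and 1 fell (58.3% and 8.33%, against 25.9% and 25.8% over all genes tested), with a median of 0.17. BMF, which promotes apoptosis, had 105 and 112 CPM in the mutant rescue and 75.9 and 77.8 CPM in the knockdown (0.50, SE 0.04), and BID (0.42), also a promoter of apoptosis, and BCL2L1, which protects from it (0.34), rose too. BCL2 was at -0.45 with 3.04 and 3.34 CPM in the mutant rescue and 4.46 and 4.26 CPM in the knockdown, a call that ended with DESeq2 (adjusted p = 0.187) and when any of the 4 libraries of the 2 groups was left out.

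Immediate early and stress genes, which cells switch on rapidly after a stimulus, had the highest median of the lists that rose, 0.42. Of 29 tested, 18 rose and 3 fell (62.1% and 10.3%, against 25.9% risen and 25.8% fallen over all genes tested), and 10 of the rises reached 1.5-fold. JUND, a subunit of the AP-1 factor, had 548 and 524 CPM in the mutant rescue, 319 and 313 CPM in the wild-type rescue and 269 and 257 CPM in the knockdown (log2 fold change 1.02, SE 0.02, edgeR adjusted p = 1.26e-83). ZFP36, which promotes the decay of messenger RNAs, had 94.6 and 95.2 CPM in the mutant rescue and 46.0 and 53.2 CPM in the knockdown (0.94, SE 0.05, edgeR adjusted p = 8.19e-41). IER5 (0.80), KLF6 (0.69), JUNB (0.59) and FOS (0.54) rose too, while the feedback inhibitors of growth factor signalling DUSP4 (-0.79) and SPRY4 (-0.74) fell. EGR1 was at 0.15 and was not called. FOSL1, at 1.71, had 1.92 and 0.692 CPM in the mutant rescue and 0.395 and 0.381 CPM in the knockdown, and without mutant rescue replicate 1 its edgeR adjusted p was 0.328.

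Genes of cholesterol synthesis and uptake, which the sterol-sensing SREBP factors switch on, were raised in part. Of 29 tested 17 rose and 3 fell (58.6% and 10.3%, against 25.9% risen and 25.8% fallen over all genes tested), 7 of the rises by at least 1.5-fold, with a median of 0.24. MSMO1, an enzyme late in the pathway, had 128 and 130.3 CPM in the mutant rescue and 67.8 and 69.4 CPM in the knockdown (0.91, SE 0.04, edgeR adjusted p = 2.23e-46). FDFT1, the first enzyme committed to sterols (0.84), and IDI1 (0.62) and HMGCS1 (0.62), of the mevalonate part, rose as well. SQLE (-0.12) and CYP51A1 (-0.10), also of the pathway, were not called. ABCA1, which exports cholesterol, was at -1.22 on 0.463 and 0.755 CPM in the mutant rescue and 1.30 and 1.59 CPM in the knockdown, and without mutant rescue replicate 1 its edgeR adjusted p was 0.118, and without knockdown replicate 2 it was 0.071. With DESeq2 size factors the falls numbered 5, and with the length trend removed 6.

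Among genes of fatty acid synthesis 9 of 20 rose and 3 fell (45.0% risen, against 25.9% risen and 25.8% fallen over all genes tested), with a median of 0.03. FASN, the fatty acid synthase, had 3323 and 3229 CPM in the mutant rescue, 1565 and 1628 CPM in the wild-type rescue, 1750 and 1797 CPM in the knockdown, and 2712 and 2723 CPM in the control (log2 fold change against knockdown 0.89, SE 0.02, edgeR adjusted p = 1.06e-91). The wild-type rescue of FASN lay below the knockdown and the mutant rescue above every other library. ACSS2, which makes acetyl-CoA from acetate (0.63), and SCD, which desaturates fatty acids (0.44), rose, while ACLY, the other main source of cytosolic acetyl-CoA, fell by 0.16. SREBF1, the regulator of these genes, had 809 and 792 CPM in the mutant rescue and 554 and 575 CPM in the knockdown (0.51, SE 0.02, edgeR adjusted p = 1.04e-53), and SREBF2, which favours cholesterol genes, rose by 0.31 (SE 0.02).

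Genes of the ATF4 response, which follows amino acid shortage and other stresses, rose in part. Of 40 tested 18 rose and 12 fell (45.0% and 30.0%, against 25.9% risen and 25.8% fallen over all genes tested), with a median of 0.08, so the share that fell was near that of all genes. Besides CHAC1, the rises of at least 1.5-fold were the transcription factors DDIT3, ATF3 and CEBPG. DDIT3, known as CHOP, had 60.0 and 66.6 CPM in the mutant rescue and 30.1 and 30.6 CPM in the knockdown (log2 fold change 1.06, SE 0.06, edgeR adjusted p = 8.12e-39). ATF3 had 133 and 127 CPM in the mutant rescue and 65.2 and 63.2 CPM in the knockdown (1.01, SE 0.04, edgeR adjusted p = 7.84e-51), and CEBPG rose by 0.60. ATF4 itself had 241 and 242 CPM in the mutant rescue, 199 CPM in both wild-type rescue libraries, 191 and 189.5 CPM in the knockdown, and 329 and 326 CPM in the control (0.35 against knockdown, SE 0.03, edgeR adjusted p = 1.13e-23). Members that fell included genes that supply amino acids or charge transfer RNAs, such as the transporter SLC38A2 (-0.53), EPRS (-0.50), the transporter SLC7A1 (-0.38) and WARS (-0.32). ASNS, asparagine synthetase, was at 0.08 and was not called.

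Of 23 genes of the unfolded protein response 13 rose and 5 fell (56.5% and 21.7%, against 25.9% risen and 25.8% fallen over all genes tested), with a median of 0.13. HERPUD1, of degradation at the endoplasmic reticulum, had 127 CPM in both mutant rescue libraries and 74.8 and 77.1 CPM in the knockdown (log2 fold change 0.74, SE 0.04, edgeR adjusted p = 2.33e-38), and DNAJB9 (0.60) and SYVN1 (0.52) rose, whereas SEL1L, the partner of SYVN1, fell by 0.40. HSPA5, the main chaperone of this compartment, was at -0.02 and was not called.

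Genes known to respond to NRF2, the regulator of antioxidant defence, rose in 17 of 23 cases and fell in 1 (73.9% and 4.35%, against 25.9% risen and 25.8% fallen over all genes tested), with a median of 0.27. HMOX1, which breaks down heme, had 95.3 and 92.5 CPM in the mutant rescue, 44.3 and 51.1 CPM in the wild-type rescue, 42.2 and 45.9 CPM in the knockdown, and 22.4 and 21.4 CPM in the control (log2 fold change against knockdown 1.09, SE 0.05, edgeR adjusted p = 5.12e-47). FTH1, the ferritin heavy chain that stores iron, had 1274 and 1270 CPM in the mutant rescue and 781 and 772 CPM in the knockdown (0.71, SE 0.02, edgeR adjusted p = 2.49e-77). FTH1 has many processed pseudogenes, and the way its reads were assigned is not given. OSGIN1 (0.79), GCLM, of glutathione synthesis (0.42), NQO1 (0.27) and NFE2L2, which encodes NRF2 (0.25), rose too, and GSR, which recycles glutathione, fell by 0.18.

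Chaperones of the heat shock group were split. Of 19, 7 rose and 9 fell (36.8% and 47.4%, against 25.9% risen and 25.8% fallen over all genes tested), with a median of -0.07. HSPA8, the constitutive HSP70 protein, had 593 and 613 CPM in the mutant rescue, 842 and 835 CPM in the wild-type rescue, 1122 and 1126 CPM in the knockdown, and 829 and 831 CPM in the control (log2 fold change against knockdown -0.90, SE 0.02, edgeR adjusted p = 2.9e-89). HSPH1, a nucleotide exchange factor of HSP70 (-0.78), and HSP90AA1 (-0.41) fell as well, and the small chaperone HSPB1 (0.32) and BAG3 (0.30) rose.

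Genes that androgen raises or represses were examined because LNCaP cells respond to androgen. KLK3 had 3105 and 3067 CPM in the mutant rescue, 2952 and 3016 CPM in the wild-type rescue, 2598 and 2636 CPM in the knockdown, and 3705 and 3684 CPM in the control (log2 fold change against knockdown 0.24, SE 0.02, edgeR adjusted p = 2.38e-27). Of 40 androgen-induced genes 9 rose and 18 fell (22.5% and 45.0%, against 25.9% risen and 25.8% fallen over all genes tested), with a median of -0.09. KLK4 (0.42) and TMPRSS2 (0.19) rose like KLK3, whereas KLK2 (-0.30), STEAP2, a metalloreductase (-0.65), STEAP4 (-0.89) and ADAM7 (-0.97) fell. FKBP5, a co-chaperone of the HSP90 system, rose by 0.13.

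Of 15 genes known to be repressed by androgen 12 fell and 2 rose (80.0% and 13.3%, against 25.8% fallen and 25.9% risen over all genes tested), and 9 of the falls reached 1.5-fold, with a median of -0.83. These include 6 genes that attach glucuronic acid to steroids and other compounds. UGT2B28 (-1.82), UGT2B11 (-1.50), UGT2B10 (-1.44), UGT2B15 (-1.25) and UGT2B17 (-0.83) fell, but their sequences are closely similar, so reads may be shared between them and they are not separate evidence. Outside this family SI (-1.48), MYC (-0.59), PCDH11X (-1.13), SLITRK3 (-1.10), OPRK1, an opioid receptor (-0.58), DDC (-0.57) and BCHE (-0.27) fell, and CAMK2N1 rose by 0.19. UGT1A1, which shares its last exons with other genes of its locus, was at 1.98 on at most 1.20 CPM and lost its call without mutant rescue replicate 2 (edgeR adjusted p = 0.0704). Luminal epithelial genes were mixed, 7 of 22 risen and 10 fallen (31.8% and 45.5%). CLDN4, a tight junction protein, had 627 and 606 CPM in the mutant rescue and 427 and 423 CPM in the knockdown (0.54, SE 0.02), and FOLH1 had 714 and 727 CPM in the mutant rescue and 1045 and 1044 CPM in the knockdown (-0.54, SE 0.02).

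**Figure D4:**
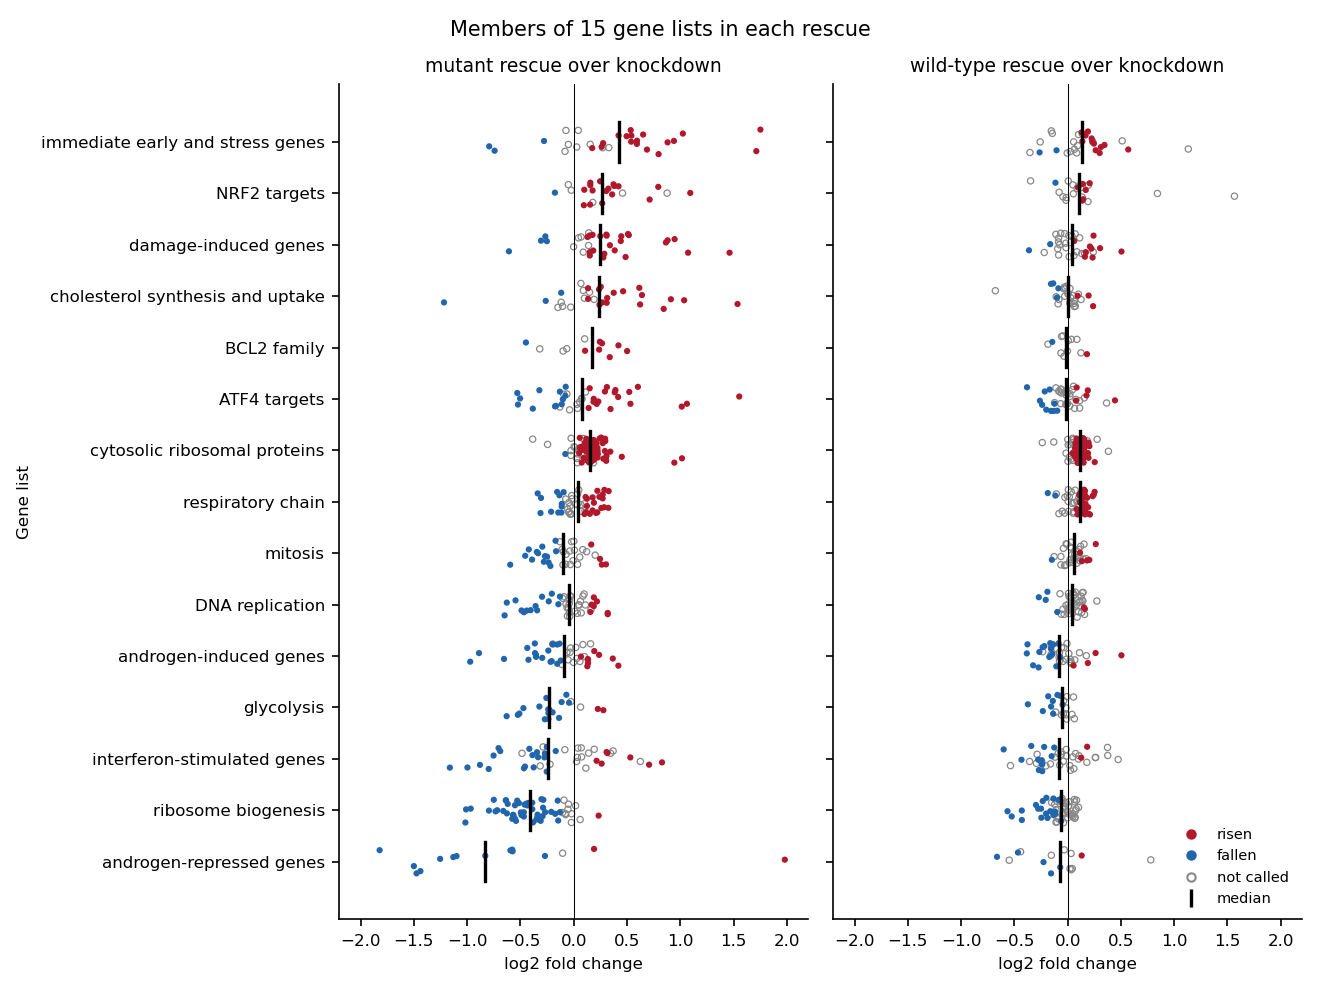
Log2 fold change over knockdown of the tested members of 15 gene lists, in the mutant rescue on the left and the wild-type rescue on the right, with filled points for called genes (red risen, blue fallen), open points for genes not called and a black bar at the median of a list. In the mutant rescue the medians run from 0.42 in immediate early and stress genes to -0.83 in androgen-repressed genes, and in the wild-type rescue from 0.14 to -0.08.

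Of 35 mitosis genes 14 fell and 4 rose (40.0% and 11.4%, against 25.8% fallen and 25.9% risen over all genes tested), with a median of -0.10, and with DESeq2 the rises numbered 1. HMMR, of the spindle, had 46.9 and 48.8 CPM in the mutant rescue, 70.1 and 70.7 CPM in the wild-type rescue and 72.2 and 72.6 CPM in the knockdown (log2 fold change -0.60, SE 0.05, edgeR adjusted p = 6.55e-22). CENPF (-0.46), CCNB1, the mitotic cyclin (-0.42), and PLK1 (-0.35) fell, whereas CDK1 (0.06), TOP2A (-0.04) and BIRC5 (-0.10) were not called. Of 44 replication genes 14 fell and 7 rose (31.8% and 15.9%), with a median of -0.04, and with DESeq2 8 fell and 4 rose. The share that fell was near that of all genes, and the members that fell included genes of the MCM helicase that opens the DNA. MCM2 had 55.0 and 54.6 CPM in the mutant rescue and 86.9 and 85.0 CPM in the knockdown (-0.65, SE 0.05, edgeR adjusted p = 8.57e-27), and MCM4 (-0.63), MCM3 (-0.49), MCM6 (-0.44) and MCM7 (-0.40) fell, while MCM5 was at -0.09 and PCNA, the sliding clamp, at -0.07, neither called. CDT1, which loads the helicase, rose by 0.32.

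Glycolysis genes fell in 16 of 20 cases and rose in 2 (80.0% and 10.0%, against 25.8% fallen and 25.9% risen over all genes tested), with a median of -0.23. LDHA, which makes lactate, had 262 and 257 CPM in the mutant rescue, 370.4 and 361 CPM in the wild-type rescue, 401 and 402 CPM in the knockdown, and 409.6 and 403 CPM in the control (log2 fold change against knockdown -0.63, SE 0.02, edgeR adjusted p = 4.93e-56). ENO1 had 773 and 755 CPM in the mutant rescue and 1084 and 1093 CPM in the knockdown (-0.51, SE 0.02, edgeR adjusted p = 1.79e-57), and HK2, the entry enzyme (-0.52), and PKM (-0.32) fell too. LDHA was the member that fell by 1.5-fold, and the isoforms ALDOC (0.23) and ENO2 (0.28) were those that rose. Respiratory chain subunits rose in 20 of 50 cases and fell in 11 (40.0% and 22.0%), with a median of 0.04, all under 1.5-fold. With the length trend removed 14 rose and 23 fell and the median was -0.06. NDUFS1, of complex I, fell by 0.34 and COX6A1, of the terminal oxidase, rose by 0.33.

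Interferon-stimulated genes, which act against viruses, fell more often than they rose. Of 42 tested 19 fell and 7 rose (45.2% and 16.7%, against 25.8% fallen and 25.9% risen over all genes tested), 7 of the falls by at least 1.5-fold, with a median of -0.24. HERC6 had 9.79 and 9.88 CPM in the mutant rescue, 17.3 and 15.3 CPM in the wild-type rescue, 20.1 and 19.1 CPM in the knockdown, and 16.5 and 15.1 CPM in the control (log2 fold change against knockdown -1.0, SE 0.10, edgeR adjusted p = 1.14e-16). RSAD2, the antiviral viperin, had 2.65 and 3.02 CPM in the mutant rescue and 6.26 and 6.48 CPM in the knockdown (-1.16, SE 0.18, edgeR adjusted p = 1.23e-08). EIF2AK2, a kinase that senses viral RNA (-0.75), and IFIT1 (-0.69) fell. The rises included genes of antigen processing and their regulators. IRF1, a transcription factor of that kind, had 57.8 and 52.6 CPM in the mutant rescue and 31.0 and 31.1 CPM in the knockdown (0.83, SE 0.06, edgeR adjusted p = 2.84e-27), and PSMB9 (0.71), IRF7 (0.53) and TAP1 (0.32) rose. Among 20 NF-kappaB response genes 9 rose and 7 fell (45.0% and 35.0%). PTGS2, the inducible cyclooxygenase, had 4.63 and 5.54 CPM in the mutant rescue, 14.8 and 11.9 CPM in the wild-type rescue and 13.5 and 11.1 CPM in the knockdown (-1.28, SE 0.14, edgeR adjusted p = 1.94e-15), and the chemokines CXCL8 (-0.75) and CCL20 (-0.46) and the subunit NFKB1 (-0.58) fell. The inhibitors NFKBIA (0.49) and NFKBIE (0.54) and the adhesion molecule ICAM1 (0.52) rose. With DESeq2, or without mutant rescue replicate 2, the rises in this list numbered 4.

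Adhesion genes fell in 14 of 27 cases and rose in 7 (51.9% and 25.9%, against 25.8% fallen and 25.9% risen over all genes tested), with a median of -0.08, and with the length trend removed 9 fell and the median was 0.02. With the DESeq2 Wald test the falls also numbered 9, at a median of -0.09. FERMT1, an activator of integrins, had 9.06 and 8.69 CPM in the mutant rescue and 18.6 CPM in both knockdown libraries (log2 fold change -1.07, SE 0.11, edgeR adjusted p = 1.31e-17), and ITGA2 (-0.73) and TLN2 (-0.94) fell. TNS4 had 16.3 and 15.9 CPM in the mutant rescue, 8.31 and 7.13 CPM in the wild-type rescue, 7.56 and 6.80 CPM in the knockdown, and 21.8 and 18.5 CPM in the control (1.16 against knockdown, SE 0.12, edgeR adjusted p = 2.57e-17). IGF2R, which clears insulin-like growth factor 2 and carries lysosomal enzymes, had 245 and 254 CPM in the mutant rescue, 331 and 333 CPM in the wild-type rescue, 512 and 529 CPM in the knockdown, and 437 and 440.2 CPM in the control (-1.06 against knockdown, SE 0.02, edgeR adjusted p = 1.06e-87). Of 9 nuclear long noncoding RNAs 4 rose and 3 fell (44.4% and 33.3%), with a median of 0.02. MALAT1 (0.43) and NEAT1 (0.20) rose, as did KCNQ1OT1 (0.65), which is antisense to KCNQ1 and cannot be told apart from it if strand was not used. PCGEM1, PCA3 and PCAT1 fell, and with DESeq2 the falls in this list numbered 1. The replication-dependent histone genes HIST2H2BE (0.61) and HIST1H2BD (0.58) rose. Over 16 such genes 5 rose and 2 fell (31.2% and 12.5%), the share risen being near that of all genes, and the median of 0.12 turned to -0.03 with the length trend removed, when 4 rose and 3 fell.

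Gene length moved with these changes. Over the 15289 genes tested, Spearman's rho between the length in the deposited table and the log2 fold change of mutant rescue over knockdown was -0.179, across genes that share the same libraries and are not independent. Genes that rose by at least 1.5-fold had a median length of 2393 bases and those that fell one of 4014 bases, against 3194 bases over all genes tested. Among the 3828 shortest genes 5.28% rose and 3.27% fell by 1.5-fold, and among the 3820 longest 1.70% rose and 8.19% fell. With each library's length trend removed 7712 genes were called, 1326 of them at 1.5-fold. Of the 7712 genes, 6996 were among the 7909 called without this step. For the wild-type rescue over knockdown the calls went from 3673 to 2623, of which 2110 were shared. Between mutant and wild-type rescue they went from 6307 to 6308, of which 6168 were shared. The rho was -0.346 for the wild-type rescue over knockdown and 0.012 for mutant rescue over wild-type rescue. Of the 146 single genes followed besides METTL3, 140 kept their status with the trend removed and 5 lost their call. MAX was then called at -0.14 (edgeR adjusted p = 0.0491). The cause of the trend was not tested.

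**Figure D5:**
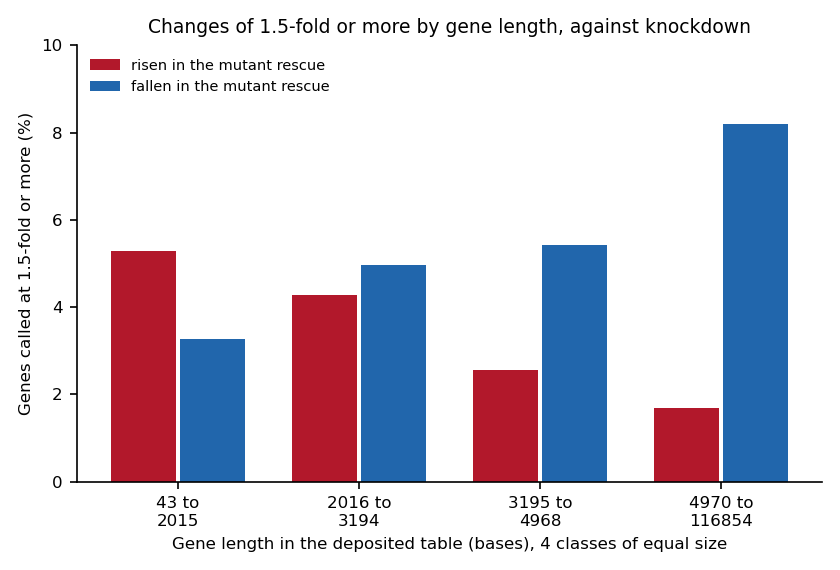
Share of genes (percent, bars from 0) called at 1.5-fold or more in mutant rescue over knockdown, in 4 classes of nearly equal size by the gene length in the deposited table, with rises in red and falls in blue. Rises go down in share with length, from 5.28% in the shortest to 1.70% in the longest class, and falls go up from 3.27% to 8.19%.

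The wild-type rescue was set beside the mutant rescue to see which of these differences also appear with an active METTL3. Both rescues are compared with the same 2 knockdown libraries, so their changes are not independent, and the difference between them was tested directly as mutant rescue against wild-type rescue. Against the knockdown 7909 genes were called in the mutant rescue and 3673 (24.0%) in the wild-type rescue, of which 1652 rose (10.8%) and 2021 fell (13.2%). A change of 1.5-fold was reached by 1363 genes in the mutant rescue and by 128 (0.837%) in the wild-type rescue, 58 risen (0.379%) and 70 fallen (0.458%). Between mutant and wild-type rescue 6307 genes (41.3%) were called, 3206 higher (21.0%) and 3101 lower (20.3%) in the mutant rescue, and 651 (4.26%) reached 1.5-fold, 214 higher (1.40%) and 437 lower (2.86%).

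Calls were fewer over all genes in the wild-type rescue, so the members of a list are given with their shares beside those of all genes tested. All these shares keep the length trend, and list members in the wild-type rescue were not counted with it removed. Of ribosome biogenesis factors 45 of 56 fell in the mutant rescue (80.4%, against 25.8% of all genes) and 19 in the wild-type rescue (33.9%, against 13.2%), with medians of -0.41 and -0.07. In the direct comparison 45 were lower in the mutant than in the wild-type rescue (80.4%, against 20.3% of all genes). Of damage-induced genes 23 of 33 rose in the mutant rescue (69.7%, against 25.9%) and 9 in the wild-type rescue (27.3%, against 10.8%), and 22 were higher in the mutant than in the wild-type rescue (66.7%, against 21.0%). Of cholesterol genes 17 of 29 rose in the mutant rescue (58.6%) and 3 in the wild-type rescue (10.3%, near the 10.8% of all genes), and 16 were higher in the mutant than in the wild-type rescue (55.2%). Of androgen-repressed genes 12 of 15 fell in the mutant rescue (80.0%) and 5 in the wild-type rescue (33.3%), and 11 were lower in the mutant than in the wild-type rescue (73.3%). This list holds the closely similar UGT2B genes, whose reads may be shared, so its members are not all separate evidence. Of androgen-induced genes 18 of 40 fell in the mutant rescue (45.0%) and 17 in the wild-type rescue (42.5%, against 13.2% of all genes). Between the rescues 12 of them were lower and 11 higher in the mutant rescue (30.0% and 27.5%). Of cytosolic ribosomal proteins 62 of 78 rose in the mutant rescue (79.5%) and 57 in the wild-type rescue (73.1%), at medians of 0.16 and 0.12, and 31 were higher and 6 lower in the mutant than in the wild-type rescue (39.7% and 7.69%). Respiratory chain subunits rose in 20 of 50 cases in the mutant rescue (40.0%) and in 28 in the wild-type rescue (56.0%), and 16 were lower and 4 higher in the mutant than in the wild-type rescue (32.0% and 8.0%). Adhesion genes fell in 14 of 27 cases in the mutant rescue (51.9%) and in 11 in the wild-type rescue (40.7%). In the direct comparison 4 adhesion genes were lower and 8 higher in the mutant rescue (14.8% and 29.6%). Glycolysis genes fell in 16 of 20 and 9 cases (80.0% and 45.0%), and 11 were lower in the mutant than in the wild-type rescue (55.0%). Immediate early and stress genes rose in 18 of 29 and 12 cases (62.1% and 41.4%), and 16 were higher (55.2%).

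Single genes showed the size of these differences. INSIG1 was at 1.54 over knockdown in the mutant rescue and at 0.24 in the wild-type rescue, and the mutant exceeded the wild-type rescue by 1.30 (edgeR adjusted p = 2.15e-74). FASN rose by 0.89 in the mutant rescue and fell by 0.15 in the wild-type rescue, a difference of 1.04 (edgeR adjusted p = 1.98e-100). CDKN1A was at 1.07 in the mutant rescue and at 0.22 in the wild-type rescue, a difference of 0.85 (edgeR adjusted p = 1.93e-83). MYC was at -0.59 in the mutant rescue and at -0.07 in the wild-type rescue, a difference of -0.52 (edgeR adjusted p = 7.56e-43). KLK3 rose nearly alike, by 0.24 in the mutant rescue and 0.19 in the wild-type rescue, with a difference of 0.05 (SE 0.02, edgeR adjusted p = 0.0154).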

How the data were processed

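RNA was sequenced in 8 LNCaP libraries, prepared from TRIzol extracts with a kit that keeps strand, per the labels' protocols. The submitters' processing notes list CASAVA, STAR 2.5.2b, featureCounts and DESeq2 with the build hg19; parameters, annotation and strand setting are not given in the sources used here. The authors deposited raw read counts per gene and library, and another column with gene length in bases.

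The counts were fitted in R 4.3.3 with edgeR 4.0.16 (quasi-likelihood, robust, TMM scaling), using all 8 libraries and a mean for each of the 4 groups. The filter filterByExpr, with a count of at least 10 and a total of at least 15, kept 15289 of 27140 genes. Tests were two-sided, with Benjamini-Hochberg adjustment over all genes tested, and calls were made at an adjusted p under 0.05. The SE is the absolute log2 fold change over the square root of F. An exact permutation test of 2 against 2 libraries cannot go below p = 0.333, so p-values come from this model. CPM use TMM-scaled depth and are not corrected for gene length, so they compare libraries, not genes. The marker sums are the exception and use the total counts of the library without this scaling. Reads were not counted by molecular identifier. The steps were tested on simulated data.

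The comparison, members and 35 gene lists were chosen with earlier results of these data known. Genes named by rule are METTL3, KLK3, MYC, MAX, MDM2, ATF4, SREBF1, SREBF2 and NFE2L2, the 12 largest rises and 12 largest falls among called genes (mean of 5 CPM or more, libraries not overlapping, no clone name), and up to 4 called members per list. Other members were named after their values were seen, and some genes that meet the rule are not reported here; they stay in the list counts. Promoter windows are RefSeq's on GRCh38.p14, matched by symbol for 11109 of the genes tested. Alternatives were the size factors or the Wald test of DESeq2 1.42.0, no filter on low counts, each library left out, a replicate block, the 2 compared groups alone, and removal of a lowess trend (span 0.3) on gene length.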

Additional observations from a re-analysis of the deposited data

How the results depend on the processing

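No alternative reversed METTL3 or any of the 146 other single genes followed. For mutant rescue over knockdown 7909 genes were called, 5441 with the DESeq2 Wald test, all among them. With that test the wild-type rescue over knockdown gave 1705 calls (3673 with edgeR) and mutant over wild-type rescue 3749 (6307 with edgeR), and DESeq2 tested fewer genes, 13807 in the first comparison. Leaving out each library gave 6631 to 7978 calls for mutant rescue over knockdown, 1193 to 1398 at 1.5-fold, 2473 to 3680 for wild-type rescue over knockdown, 4959 to 6289 for mutant over wild-type rescue, and a METTL3 log2 change of 3.41 to 3.67. The remaining library of a group was then assumed to vary like the other groups. Among these genes 17 lost their call under at least 1 alternative, most of them at a few CPM. Of 60 counts of list members 18 moved by over 1.5 times under some alternative, for causes that were not tested. Deviations of libraries with the same replicate number had r of -0.05 to 0.04 over 10398 genes. Replicates differed by little more than counting error (chi-square over its degrees of freedom 1.22 to 1.37), so this r cannot show whether the numbers pair the libraries. With the replicate block 7930 genes were called, 1371 at 1.5-fold. Depth limits genes at a few CPM.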
